A study of Mus musculus with 6 samples.

Results

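The wild-type mammary epithelial cell cultures of a mouse study of the histone demethylase Jarid1b were described on their own, from the 3 arrays labelled WT.A1, WT.B1 and WT.C2, which are called A, B and C here. They are 3 of 6 arrays in the series. The others carry RNA of cells without Jarid1b, the older symbol of Kdm5b, and are not used here. All 3 cultures were Jarid1b+/+, at early passage and not yet confluent, and the labels name no treatment, strain, age or sort for them. Total RNA of each was copied into biotinylated cRNA and read on an Illumina mouse bead array, on which each probe gives an intensity and a detection p-value against negative control beads. No label ties a culture to a separate animal. The spread between these arrays may therefore be technical, and their small number limits the precision of every value.

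The genes described are those with 1 probe detected, at a detection p under 0.05, on all 3 arrays. Of 19057 named genes, 9227 (48.4%) met this rule, 893 were detected on 2 arrays, 1304 on 1 array and 7633 (40.1%) on none. Each array on its own detected 10202 (A), 10086 (B) or 10555 (C) named genes, with median raw intensities of 100.7, 99.9 and 97.9. Values below are log2 intensities after background correction and quantile normalisation, on which the dimmest detected probes read 4.57 on A, 4.60 on B and 4.53 on C. No genotype was compared and no test was run. Differences are therefore given beside the spread of all detected genes.

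The mammary epithelium has an inner luminal layer, marked by keratins 8 and 18, and an outer basal or myoepithelial layer, marked by keratins 5 and 14 and by smooth muscle proteins. Luminal cells comprise hormone-sensing cells, which carry the oestrogen and progesterone receptors, and progenitor and alveolar cells, which make milk proteins under the control of prolactin and the transcription factor Elf5. Primary cultures can also hold cells of the gland's stroma, vessels and blood. In RNA of a whole culture, fewer cells of a type and less of a transcript per cell cannot be told apart.

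Array C stood apart from A and B, and this touches every result below. Across the 9227 detected genes, A and B correlated with a Pearson r of 0.993, whereas C correlated with A at 0.932 and with B at 0.938. These coefficients run across genes, which are not independent replicates. At least 2-fold lay between A and B for 14 genes, between A and C for 1176 and between B and C for 985. The sample numbers in the labels of A and B belong to one series of numbers and that of C to another, while all 3 arrays sat on 1 chip. No label explains this numbering, and its part in the results was not tested.

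The defining markers of both epithelial layers were detected on all 3 arrays. Krt8 read 13.34 on A, 13.20 on B and 13.23 on C, and Krt18, its partner in luminal filaments, read 12.31, 12.25 and 11.63. Krt14, the basal keratin, read 13.29, 13.16 and 12.70. All 3 were among the 155 brightest detected genes on the mean of the arrays, at ranks 45, 155 and 63. Krt5, the usual partner of Krt14, read 7.69, 7.73 and 8.51 and ranked 3300. Brightness depends on the probe as well as on the transcript, so these ranks order probes and say nothing of the ratio of one keratin to another.

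The milk protein gene Csn2, which encodes beta-casein, read 11.85, 11.44 and 12.39. Vim, which encodes the intermediate filament of mesenchymal cells, read 9.90, 9.99 and 9.95. The deviation of C from the mean of A and B was -0.04 for Krt8 and 0.01 for Vim, so the arrays hardly differed there after quantile normalisation. It was -0.65 for Krt18, -0.53 for Krt14, 0.75 for Csn2 and 0.80 for Krt5, against a median of 0.08 over all detected genes.

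**Figure D1:**
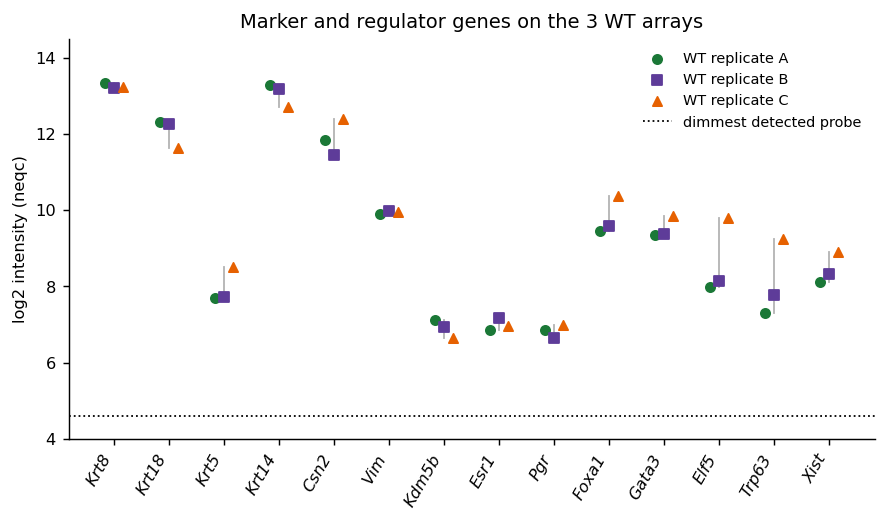
Log2 intensity (vertical axis) of 14 marker and regulator genes on the WT arrays, with 1 symbol per array and a grey line over the range of each gene. The dotted line is the dimmest detected probe. Array C lies above the other 2 for Krt5, Csn2, Pgr, Foxa1, Gata3, Elf5, Trp63 and Xist. Its deviation from the mean of A and B is 1.73 for Elf5 and 1.70 for Trp63.

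Regulators of both lineages were detected as well. The luminal transcription factors Foxa1 and Gata3 read 9.44, 9.59 and 10.36, and 9.35, 9.37 and 9.86. Elf5, the alveolar regulator, read 7.98 on A, 8.13 on B and 9.78 on C, and its other detected probes read higher on C by 1.50 and 1.60. Trp63, the basal regulator p63, read 7.31, 7.79 and 9.25, with 1 of its 2 probes detected. Both factors were thus brighter on C than on either other array. The hormone receptor genes differed less: Esr1 read 6.85, 7.16 and 6.96 and Pgr read 6.85, 6.66 and 6.99. For Esr1, 1 of 4 probes was detected, so this level rests on a single probe.

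Kdm5b itself, the gene removed in the rest of the series, read 7.11, 6.93 and 6.65 (mean 6.90 ± 0.24, SD, n = 3) and ranked 4984. Xist, the RNA that silences 1 X chromosome in female cells, read 8.10, 8.33 and 8.91 and was detected by all of its 4 probes. The Y-linked Eif2s3y, Kdm5d, Zfy1 and Zfy2 were not detected on any array. Uty, also Y-linked, read 4.65, 4.97 and 4.84, close to the dimmest detected probes, through 1 of its 4 probes.

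The brightest probes included many of the translation machinery and several of secreted products in the luminal progenitor, alveolar and milk lists. Which cells of the culture made these transcripts was not tested. Of the 30 brightest genes, 14 encode ribosomal proteins, among them Rplp1, Rpl9 and Rpl38, and 34 of the 100 brightest do. Over the array, 57 of 70 named ribosomal protein genes were detected, with a median SD between arrays of 0.09. The other 16 of the 30 included Eef1a1, an elongation factor of translation, Ppia, a protein folding enzyme, Atp5b of the mitochondrial ATP synthase, and the mitochondrial CYTB. Ubb-ps, annotated as a pseudogene of ubiquitin B, may cross-hybridise with near-identical ubiquitin transcripts, and its signal is uncertain in that respect.

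Among the secreted products, Mfge8, a milk fat globule protein, read 14.38, 14.37 and 14.40. Lcn2, which encodes an iron-siderophore binding protein, read 14.35, 13.96 and 13.96. Csn3, the gene of kappa-casein, read 13.95, 13.73 and 13.99. Mfge8 differed by 0.02 between its highest and lowest array, one of the narrowest ranges among bright genes. The iron carriers Trf (13.73, 13.58 and 14.17) and Ltf (13.59, 13.39 and 13.81) followed. Also among the brightest genes were the ferritin chain Fth1 (14.00, 13.79 and 13.68) and the membrane protein gene Itm2b (13.75, 13.68 and 14.17).

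Acta2, the smooth muscle actin of myoepithelial cells, was in the same group at 13.62, 13.53 and 14.33. The metal-binding Mt1 read 14.29, 14.42 and 13.73, the immediate early gene Ier3 read 13.78, 13.78 and 13.24, and the protease inhibitor gene Cstb read 13.93, 13.84 and 12.91. Cstb was the only one of the 30 whose arrays spanned more than 2-fold. Together the 100 brightest genes held 23.5% (A), 23.3% (B) and 22.4% (C) of the summed signal of all detected genes. The 500 brightest held 49.1%, 49.0% and 47.8%. Quantile normalisation gives all arrays the same distribution of values, so the likeness of these shares between arrays is largely built in. Pairwise, A and B shared 97 of their 100 brightest genes, A and C 80, and B and C 81.

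Membership of 20 cell type lists gave a rough picture of the lineages present. Of 257 list members with a named probe, 170 (66.1%) were detected on all 3 arrays, against 48.4% of all named genes. The luminal list had 14 of 17 members detected, the luminal progenitor and alveolar list 13 of 13, the hormone-sensing list 8 of 11 and the basal and myoepithelial list 17 of 20. The mammary stem cell list had 14 of 14, but many of these genes, such as Cd44, Itgb1 and Itga6, are also expressed by other cells. Most members of that list were dim. Their median brightness was at percentile 21.9 of all detected genes, and 1 of the 14 lay among the brightest 10%. Lists of cell types foreign to the gland served for orientation. The hepatocyte list had 0 of 10 detected and the neuron list 3 of 10, both below the share of all genes.

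**Figure D2:**
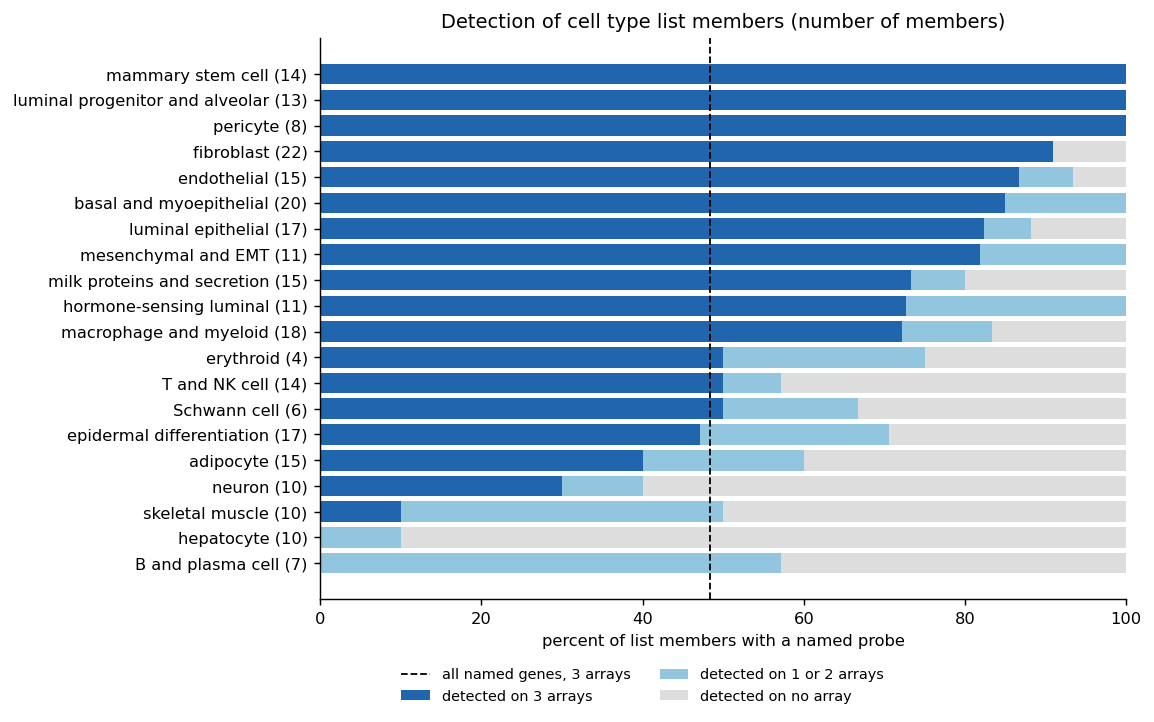
Share of list members (horizontal axis, percent) detected on all 3 WT arrays, on 1 or 2, or on none, for 20 cell type lists, with the number of members in brackets. The dashed line marks the 48.4% of all named genes detected on all 3 arrays. Mammary epithelial, fibroblast, endothelial, pericyte and myeloid lists lie above it, while neuron, skeletal muscle, hepatocyte and B cell lists lie below it.

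Beyond the keratins, the luminal list was led by Cldn4, a tight junction claudin, at 13.70, 13.58 and 13.04. Krt19 read 11.92, 11.98 and 11.61, and Spint1, an inhibitor of membrane proteases, read 11.55, 11.52 and 11.32. The adhesion protein gene Cdh1 read 9.46, 9.33 and 8.90. These 4 genes were lowest on C, as were most of the list, with 3 of 14 members above the mean of A and B there and a median deviation of -0.29. Over all detected genes 55.7% lay above that mean. The widest ranges of the list belonged to Cldn3, which went the other way and deviated by 1.20 on C, and to the transcription factor gene Elf3 (10.67, 10.42 and 9.47).

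Some luminal markers were absent. Epcam, the epithelial cell adhesion molecule, read 4.27, 4.23 and 4.18 at its only probe, and Ehf, an epithelial transcription factor, read 4.19, 4.22 and 4.16. Neither was detected on any array, and Cd24a was detected on A and C alone. With 1 named probe for each of these genes, a silent gene and a failing probe cannot be told apart.

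In the progenitor and alveolar list, the members differed in direction. Kit, a receptor tyrosine kinase of luminal progenitors, read 9.38, 9.77 and 11.18, and the Notch target Hey1 read 9.40, 9.97 and 11.72. Aldh1a3, a retinal dehydrogenase, read 10.75, 10.48 and 8.37, and Cd14, a co-receptor for bacterial lipopolysaccharide, read 12.27, 11.98 and 10.56. Kit and Hey1 were thus brightest on C, and Aldh1a3 and Cd14 dimmest there. The median deviation of C over the 13 members was 0.33.

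Hormone-sensing genes were detected in 8 of 11 cases. Cited1, a transcriptional co-regulator, read 8.52, 9.17 and 8.66, and Wnt4, a target of progesterone, read 8.18, 8.42 and 8.26. B was the brightest of the 3 arrays for both, as it was for Esr1, Spdef and Tbx3. Pgr, Foxa1 and Prom1 were brightest on C. None of the 8 detected members lay among the brightest 10% of detected genes, and their median SD was 0.21, close to the 0.25 of all detected genes. Tnfsf11, which encodes RANKL, and the oestrogen target Greb1 were each detected on B alone.

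Milk protein genes were detected in 11 of 15 cases. Csn1s1 (alpha-casein) read 12.01, 11.46 and 12.15, and Btn1a1 (butyrophilin) read 11.44, 11.60 and 12.41. Wap and Lalba, which mark late pregnancy and lactation, read 6.76, 6.13 and 6.75, and 6.31, 6.04 and 8.06. Csn1s2a, Olah and Lpo were not detected. C was above the mean of A and B for 9 of the 11, with a median deviation of 0.67, or 0.41 both with uncorrected intensities and in the value table of the authors. The exception with the largest size was Plin2, a lipid droplet coat protein gene, at 9.05, 8.92 and 7.65. B was low for this list, which lowers the mean that C is set against. On B, 1 of the 11 members, Plin2, lay above the mean of A and C, and the median deviation was -0.58.

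Glycam1, a secreted mucin of milk, varied most of the milk list and was not detected on every array. It read 8.19 on A and 10.76 on C, while on B it read 4.23 and was not above background. This spread was not shared by the caseins, of which Csn2 spanned 0.96 between B and C.

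The contractile genes of the myoepithelium were brighter on C. Mylk, the myosin light chain kinase, read 10.98, 11.09 and 12.08, Myh11 read 9.48, 9.69 and 10.62, Myl9 read 9.50, 9.62 and 10.69, and Actg2 read 8.64, 8.43 and 9.69. All 4 lay at least 2-fold above the mean of A and B on C. For Acta2 the brightest probe, which is near the top of the scale, deviated by 0.76, and its other detected probes by 1.24 to 1.33. In the whole basal list, 6 of 17 members were at least 2-fold above on C, against 4.58% of all detected genes, and the median deviation was 0.76. The lists were chosen with earlier results of these data known, so such counts are descriptive only. Cnn1 (calponin), Oxtr (the oxytocin receptor) and Il17b were detected on C alone.

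The keratins of the basal list differed in direction. Krt5 deviated by 0.80 on C, while Krt14 deviated by -0.53. Krt17 read 12.34, 12.23 and 11.81 and Krt15 read 6.91, 7.17 and 7.20. Nrg1, a growth factor made by basal cells, read 7.44, 7.72 and 6.57 and was the only basal list member at least 2-fold below on C. Pericytes share part of the contractile set, but the pericyte list holds none of the contractile genes named above. Its summed signal was 1026 (A), 1088 (B) and 1991 (C), led by Anpep at 7.75, 8.03 and 9.73. On C, 6 of its 8 members lay above the mean of A and B. Mcam (7.39, 7.44 and 7.24) and Cspg4 (4.86, 4.83 and 4.82) did not. Whether myoepithelial or mural cells carry the difference was not tested.

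Stromal and vascular genes were detected in most cases. The fibroblast list had 20 of 22 members detected, led by Dcn (decorin) at 12.26, 12.41 and 12.17, and by Col6a1 at 10.21, 10.44 and 10.43. Col1a1, the main chain of fibrillar collagen, read 8.48, 8.97 and 8.59, while Postn and Col5a2 were not detected. The median SD was 0.16 and the summed signal was 10478, 11596 and 10087, with Dcn as its largest part. B lay above the mean of the other 2 arrays for 17 of the 20 members, with a median deviation of 0.18. C lay above for 7 of the 20, with a median deviation of -0.14. Most members spanned less than 2-fold between arrays. The 3 exceptions are Twist2, a mesenchymal transcription factor gene (7.21, 7.35 and 4.71), Pi16 (7.07, 7.33 and 5.93) and Dpt (7.32, 7.45 and 6.29), all lower on C.

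The endothelial list had 13 of 15 members detected. Plvap, a protein of fenestrated endothelium, read 10.41, 10.52 and 10.99, Vwf (von Willebrand factor) read 10.12, 10.36 and 10.57, and Pecam1 read 9.01, 8.99 and 9.17. No member spanned 2-fold, and the median deviation of C was 0.23. Kdr, the receptor for vascular endothelial growth factor, was detected on C alone at 4.57, and Erg on no array. Against this steady background, the selectins that activated endothelium displays differed widely. Sele read 9.75 on A, 10.02 on B and 5.20 on C, and Selp, named after its values were seen, read 11.97, 12.00 and 7.76.

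Blood cell lists were detected in part. The myeloid list had 13 of 18 members (72.2%) detected, against 48.4% of all named genes, with no member among the brightest 10%. Its brightest was Laptm5 (9.73, 9.32 and 10.36), followed by Lyz2 (7.93, 7.55 and 8.58) and C1qb (7.27, 7.11 and 7.40). Among its other members, Csf1r, Adgre1, Tyrobp and Aif1 were detected on every array, while Ptprc, Fcer1g and Spi1 were not detected on any. Of the T and NK cell list, 7 of 14 were detected, near the 48.4% of all genes. The T cell receptor components Cd3d (5.02, 5.08 and 6.09) and Cd3e (5.32, 4.85 and 6.57) were brightest on C, as was Cd3g with a deviation of 1.31, while Cd4 and Cd8a were not detected. The brightest detected T and NK member was Cd8b1 at 8.99, 9.02 and 9.61, through 1 of its 3 probes. The summed signal of the detected T and NK members was 746.1, 745.8 and 1216, and most of it came from Cd8b1. The B and plasma cell list had 0 of 7 members detected on all 3 arrays by 1 probe, although Cd79b, Cd22 and Mzb1 passed on A and C.

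Haemoglobin transcripts, products of red blood cells, separated C from A and B. Hba-a1 read 12.62 on A, 13.66 on B and 8.07 on C, and the beta chain genes Hbb-bs and Hbb-bt read 12.18, 12.94 and 6.64, and 12.28, 13.08 and 6.96. The deviations of C were -5.07, -5.92 and -5.72. Hbb-bs and Hbb-bt are near-identical copies and their probes may not tell them apart. Alas2, the haem synthesis enzyme of red cell precursors, read 5.68 and 6.36 on A and B and was not detected on C. Slc4a1, the anion exchanger of the red cell membrane, was detected on no array. B exceeded A by 1.04 for Hba-a1, so these 2 arrays also differed from each other. Of the erythroid list, 2 of 4 members were detected, Hba-a1 and Epor, near the 48.4% of all named genes. Epor, the erythropoietin receptor gene, read 4.78, 4.80 and 4.66, close to the dimmest detected probes. Hbb-bs and Hbb-bt are not in this list. Its summed signal of 6312, 12952 and 293.1 therefore came almost wholly from Hba-a1.

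Adipocyte and muscle lists had a smaller share of members detected than the 48.4% of all named genes. Of the adipocyte list, 6 of 15 members were detected, among them Pparg and Lep, while Fabp4, Plin1 and Cidec were not detected. Lpl, which is also expressed by alveolar cells, read 9.11, 8.70 and 9.53. Cidea, detected on A and B alone, read 6.97, 6.79 and 4.52. The muscle list had 1 of 10 members detected, Mb, at 5.62, 5.55 and 6.46. The Schwann cell list had 3 of 6, near that share, led by Mbp, while S100b and Cdh19 were not detected. Epidermal genes were detected in 8 of 17 cases, among them Dmkn (9.78, 9.65 and 7.10), Krt16 (8.45, 8.66 and 5.69), Krt6b (7.42, 7.88 and 5.10) and Krt10 (7.47, 7.40 and 9.18). The wound-associated keratins Krt16 and Krt6b were thus lower on C, and Krt10 higher.

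The spread between arrays was small for most genes and large for a defined minority. The median SD of a detected gene was 0.25, and 90% of the genes had an SD below 0.62. The highest and lowest array differed by at least 2-fold for 1325 genes (14.4%), by at least 4-fold for 168 and by at least 8-fold for 33. In 1320 of the 1325 genes (99.6%), C was the highest (590) or the lowest (730) array. With A and B alone, normalised without C, 17 genes spanned 2-fold and the median SD was 0.09. Among the dimmest 20% of genes the median SD was 0.19 and 5.53% spanned 2-fold, against 15.2% to 17.9% in the 4 brighter bins of the same size.

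C lay at least 2-fold above the mean of A and B for 423 genes (4.58%) and at least 2-fold below it for 620 (6.72%). Of 3068 genes with a second detected probe, 347 deviated at least 2-fold on C at the brightest probe. In 334 of these the second probe deviated in the same direction, and in 201 by at least 2-fold.

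**Figure D3:**
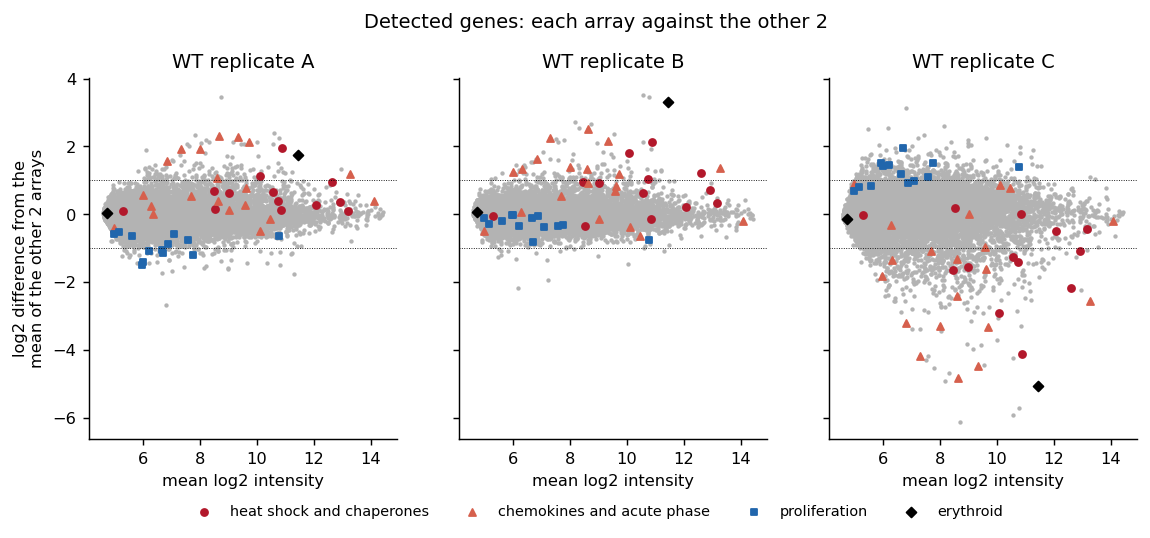
Log2 difference of each WT array from the mean of the other 2 (vertical axis) against mean log2 intensity (horizontal axis), 1 grey point per detected gene, with dotted lines at 1 and -1. Heat shock, chemokine, proliferation and erythroid members are coloured. The panel of C is the widest, and Hba-a1 lies at -5.07 there.

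Genes of the heat shock response were lower on C. Their products are chaperones that refold proteins, and in mammals their transcription is driven by heat shock factor 1, which binds repeats of GAA and TTC called heat shock elements. Hsph1, a large chaperone, read 12.20 on A, 12.33 on B and 8.16 on C. Hspa1a and Hspa1b, the inducible Hsp70 genes, read 13.25, 13.43 and 11.16, and 10.84, 11.29 and 8.15. C was lowest for each, with deviations of -4.11, -2.17 and -2.91. Hspa1a and Hspa1b are near-identical copies, so their probes may share transcripts.

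The remaining cytosolic and mitochondrial chaperones differed less. Dnajb1, an Hsp40 cochaperone, read 13.16, 13.39 and 12.19, Hspb1 read 10.99, 11.42 and 9.79, and Hsp90aa1 read 9.43, 9.62 and 7.98. The mitochondrial Hspe1 read 8.94, 9.10 and 7.38, and its partner Hspd1 deviated by -1.26 on C. The constitutive Hspa8 read 13.24, 13.40 and 12.88. In contrast, the chaperones of the endoplasmic reticulum lay near 0, with deviations of -0.03 for Hspa5, 0.01 for Hsp90b1 and 0.18 for Calr. In all, 8 of the 13 detected members were at least 2-fold below on C, against 6.72% of all detected genes. Their median deviation was -1.26. Like every list here, this list was chosen with earlier results of these data known, so its counts are descriptive and not an independent test. The summed signal was 47622, 53198 and 22993.

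Promoters of these genes were searched for a heat shock element of 3 alternating units. The motif was GAA, any 2 bases, TTC, any 2 bases and GAA, on either strand, so that TTC, GAA and TTC with the same gaps also counted. The window ran from 250 bases before to 50 after each RefSeq start site in GRCm38.p6. Of 10 detected list members with a RefSeq promoter, 3 held it, namely Hsph1, Hspe1 and Hspd1. It was present for 0.551% of 7447 detected genes and in 0.603% of all 32851 promoters. Hspa1b, Hspa1a, Hspb1 and Dnajb1, also at least 2-fold below on C, held no match. Whether the motif goes with the lower signal on C was not tested. A match describes letters only, not a site in use. Hspe1 and Hspd1 lie head to head, and their windows, chr1:55087898-55088197 on the plus strand and chr1:55087883-55088182 on the minus strand, overlap and hold the same element. The Hsph1 window is chr5:149636266-149636565 on the minus strand. The element stands in capitals in the promoters of Hsph1 and Hspe1, shown as examples of a match.
Hsph1: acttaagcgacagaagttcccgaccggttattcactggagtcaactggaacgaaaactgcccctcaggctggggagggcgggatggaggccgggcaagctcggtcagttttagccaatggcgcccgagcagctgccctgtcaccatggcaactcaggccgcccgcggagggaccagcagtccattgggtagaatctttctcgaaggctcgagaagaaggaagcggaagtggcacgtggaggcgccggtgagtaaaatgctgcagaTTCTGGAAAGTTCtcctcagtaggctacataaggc
Hspe1: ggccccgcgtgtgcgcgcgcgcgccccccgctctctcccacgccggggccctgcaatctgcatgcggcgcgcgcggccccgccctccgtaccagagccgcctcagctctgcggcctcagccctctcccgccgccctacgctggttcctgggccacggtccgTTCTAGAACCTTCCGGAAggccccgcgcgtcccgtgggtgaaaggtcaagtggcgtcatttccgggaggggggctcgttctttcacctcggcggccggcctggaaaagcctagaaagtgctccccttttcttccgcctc

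Chemokines and acute phase genes, whose products recruit leukocytes and respond to inflammation, were also lower on C. Cxcl1, an attractant of neutrophils, read 14.06, 14.17 and 11.56, and Cxcl2 read 10.88, 10.80 and 6.37. The monocyte attractants Ccl2 and Ccl7 read 8.60, 8.82 and 4.54, and 10.19, 10.34 and 5.44. On C, Ccl2 was at the level of the dimmest detected probes. The cytokine genes Il6 (7.89, 7.92 and 4.70), Il1b (9.34, 9.50 and 7.01) and Tnf (8.89, 9.23 and 7.75) and the serum amyloid gene Saa1 (9.29, 8.94 and 5.82) were also lowest on C. S100a8, a calcium-binding protein of neutrophils and stressed epithelium, read 11.14, 10.50 and 7.50.

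Of the 20 detected members, 13 were at least 2-fold below on C, again against 6.72%, with a median deviation of -1.48 and summed signals of 50953, 46804 and 25115. That median was -0.96 with uncorrected intensities and -0.94 in the value table of the authors. Members that did not take part included Lcn2, Cx3cl1 (9.11, 8.94 and 9.04), Cxcl12 (9.78, 9.86 and 10.69) and Hp (10.36, 10.03 and 10.98). S100a9, the partner of S100a8, read 4.72, 4.67 and 5.57, in the opposite direction and close to background.

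**Figure D4:**
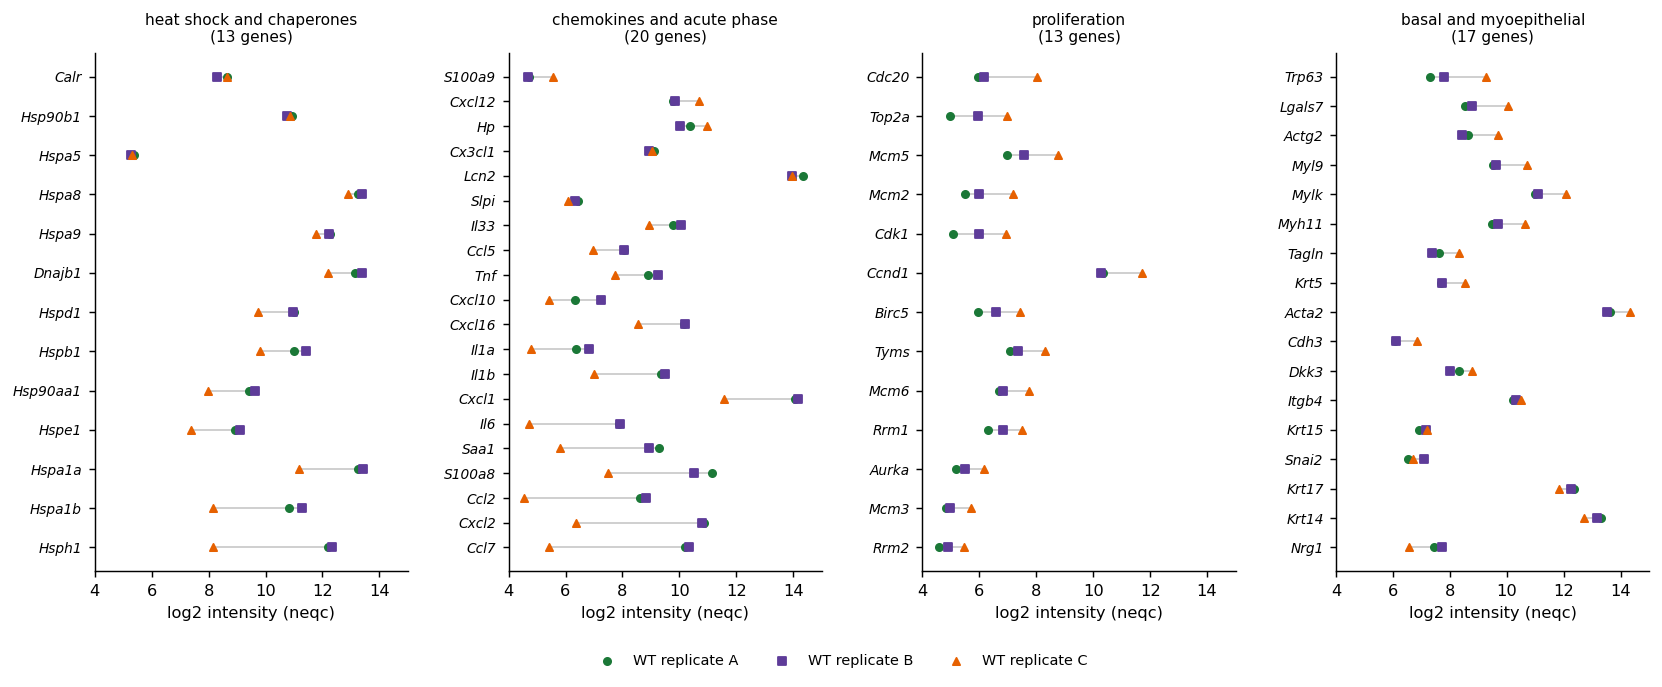
Log2 intensity (horizontal axis) of the detected members of 4 lists, 1 gene per row ordered by the deviation of C, with 1 symbol per WT array. C lies to the left of the other arrays for most heat shock and chemokine genes and to the right for all 13 proliferation genes.

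Many inflammatory genes are targets of the transcription factor NF-kappaB. Their promoters were searched, in the same window, for GGG, any 3 bases and TTCC, on either strand. It was present for 4 of 15 detected members with a promoter (Cxcl2, Il6, Cxcl1 and Cxcl10), against 7.13% of 7447 detected genes and 5.56% of all promoters. S100a8, Saa1, Il1b, Il1a and Tnf, also at least 2-fold below on C, held no match. Absence of a match says only that these letters are not in the window. The promoters of Cxcl1 (chr5:90890995-90891294) and Cxcl2 (chr5:90903649-90903948), neighbours on the plus strand, are shown with the matches in capitals. Overlapping matches on both strands form 1 run, and each promoter holds 3 matches.
Cxcl1: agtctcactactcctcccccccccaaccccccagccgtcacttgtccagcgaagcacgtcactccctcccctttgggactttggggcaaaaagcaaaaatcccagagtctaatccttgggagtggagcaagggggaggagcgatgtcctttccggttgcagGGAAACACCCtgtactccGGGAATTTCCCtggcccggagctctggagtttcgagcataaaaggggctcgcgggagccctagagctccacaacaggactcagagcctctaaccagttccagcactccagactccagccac
Cxcl2: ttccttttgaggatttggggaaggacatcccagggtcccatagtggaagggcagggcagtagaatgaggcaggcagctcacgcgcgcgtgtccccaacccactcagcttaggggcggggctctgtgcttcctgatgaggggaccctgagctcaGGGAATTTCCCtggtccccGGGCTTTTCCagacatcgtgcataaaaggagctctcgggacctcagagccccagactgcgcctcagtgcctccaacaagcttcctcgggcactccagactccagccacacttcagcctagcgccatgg

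The largest deviations of C overall included these families. Csf3, which encodes the granulocyte colony-stimulating factor, read 11.04, 10.50 and 4.64, a deviation of -6.13. On C it was just above background, so the size depends on background treatment. The deviation was -4.12 with uncorrected intensities and -3.95 in the value table of the authors. Besides haemoglobin, Sele, Ccl7 and Cxcl2, the 10 genes furthest below on C included the water channel gene Aqp3 (9.66, 10.02 and 4.91), the cytokine gene Il24 (9.37, 9.27 and 4.80) and Epgn, an EGF family ligand (10.93, 11.12 and 6.57). For Csf3, Aqp3, Il24 and Epgn, A and B lay within 1 of each other, and C was more than 4 below their mean.

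Metalloproteinases and their inhibitors held further members of this kind. Mmp3 (stromelysin 1) read 8.96, 9.25 and 6.66, Mmp13 (collagenase 3) read 7.14, 7.38 and 4.69, and Timp1 read 9.63, 9.69 and 7.64. Mmp14, a membrane-bound activator, went the other way at 10.19, 10.31 and 11.31, and Mmp2 read 11.24, 11.45 and 10.96. In this list 4 of 13 members were at least 2-fold below on C and 1 above, against 6.72% and 4.58% of all detected genes.

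In the opposite direction, genes of the cell cycle were brighter on C. The cyclin gene Ccnd1 read 10.34, 10.26 and 11.71. The replication helicase genes Mcm5 (6.97, 7.56 and 8.77) and Mcm2 (5.51, 5.99 and 7.19), the mitotic regulator Cdc20 (5.95, 6.17 and 8.02) and the topoisomerase gene Top2a (4.97, 5.94 and 6.96) were also brightest on C. All 13 detected members were above the mean of A and B on C, where 55.7% of all genes were, and 8 were at least 2-fold above, against 4.58%. The summed signal was 2064, 2268 and 5489, and most of it came from Ccnd1 on each array. The median deviation was 1.18. With uncorrected intensities that median was 0.68, and in the value table of the authors it was 0.63. A was the lowest array for 12 of the 13, all but Ccnd1.

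Of the 23 members with a probe, 14 were detected on A, 16 on B and 18 on C. Plk1, Aurkb and Bub1b, mitotic kinases and checkpoint genes, were detected on B and C but not on A. Ccnb2, Ccna2, Bub1 and Ube2c were not detected on any array. Cdkn1a, the p21 inhibitor of the cell cycle, read 10.95, 10.83 and 9.76, lower on C, while Cdkn2c read 6.05, 6.36 and 7.26.

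The genes furthest above on C were Serpinb11, a serine protease inhibitor family member (5.04, 6.51 and 8.91), the keratin gene Krt23 (7.09, 7.46 and 9.89), Fcmr, the receptor for IgM (5.94, 4.73 and 7.90), and Aplnr, the apelin receptor (4.65, 4.66 and 7.18). Extl1, Aoc1, Nrep, Tob1 and the histone genes H2ac15 and H2ac12 completed the 10. H2ac15 read 7.90, 8.60 and 10.44, and H2ac12 read 7.94, 8.65 and 10.39. Histone H2A genes are near-identical copies, so these values may come from shared transcripts.

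A and B rarely differed, and where they did C usually lay beyond them. The genes furthest below the other arrays on B were Fcmr, Aoc1 (7.04, 5.96 and 8.76), Cxcl15 (10.17, 9.05 and 10.90), Esrrb (7.05, 6.29 and 8.23) and Ctsr (6.35, 5.22 and 6.74). For A they were Serpinb11, H2ac24 (10.11, 11.20 and 12.55), the mitotic kinase gene Pbk (5.50, 6.51 and 7.96) and Uhrf1, a DNA methylation cofactor (5.91, 6.80 and 8.38). In these 9 genes C was the brightest array.

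Immediate early genes, which are induced within minutes of stimulation or of tissue handling, were among the brightest on all 3 arrays. Egr1 read 13.04, 13.14 and 13.58, Fos read 12.39, 12.51 and 13.14, Junb read 12.30, 12.46 and 13.16, and Klf6 read 12.46, 12.48 and 12.59. Of the 15 detected members, 10 were among the brightest 10% of detected genes. Fosb (10.94, 11.24 and 12.50) and Atf3 (10.75, 11.15 and 12.02) were at least 2-fold above on C, while Fosl2 (11.54, 11.41 and 9.69) and Myc (6.90, 6.81 and 5.15) were at least 2-fold below. The list's median deviation on C was 0.49.

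Further programmes showed smaller spreads. Glycolysis genes had 12 of 12 members detected, none spanning 2-fold, with a median deviation of -0.0042 on C. Their brightest member, Ldha, read 11.83, 11.77 and 11.50. Oxidative phosphorylation genes had 16 of 18 detected with a median SD of 0.13, and Cox4i1 read 12.22, 12.30 and 12.29. The interferon list had 16 of 20 detected, led by the transcription factor gene Irf1 at 11.32, 11.74 and 11.85, with a median deviation of 0.45. Among growth factor receptors, 14 of 19 were detected, led by Fgfr2 (11.66, 11.72 and 12.22). Egfr read 9.48, 9.41 and 8.93. Erbb3, Erbb4, Fgfr4, Mst1r and Ddr2 did not meet the rule.

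Junction and matrix receptor genes were intermediate. The desmosomal and tight junction list had 10 of 15 members detected, with Dsg2 (desmoglein 2) at 9.72, 9.87 and 9.58 and Cldn1 at 9.47, 9.46 and 7.61. Integrins and laminins had 15 of 19 detected, led by Itgb4, the hemidesmosomal integrin, at 10.19, 10.31 and 10.51. Lama1 read 6.02, 6.56 and 8.18 and Itga5, a fibronectin receptor chain, read 8.24, 8.27 and 6.64. Cholesterol synthesis genes had 9 of 11 detected, led by Sqle at 10.01, 9.74 and 9.32. Antioxidant genes had 15 of 16 detected with a median SD of 0.13, and Mt2 (8.31, 7.59 and 6.14) and Hmox1 (9.73, 9.37 and 8.53) were at least 2-fold below on C.

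Mesenchymal regulators were detected beside Vim. Sparc, a matrix protein gene, read 11.25, 11.44 and 12.15, Bgn (biglycan) read 11.41, 11.55 and 11.13, and Zeb1 read 7.71, 7.63 and 6.81. Snai1 read 7.06, 6.84 and 5.91, and Cdh2 (N-cadherin) and S100a4 were each detected on 1 array. In the stem cell list, Sox9 read 12.59, 12.44 and 11.51 and Cd44 read 10.16, 9.65 and 8.62, while Lgr5, a Wnt pathway receptor, read 5.38, 5.52 and 5.55 and Procr read 5.35, 5.24 and 4.56.

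**Figure D5:**
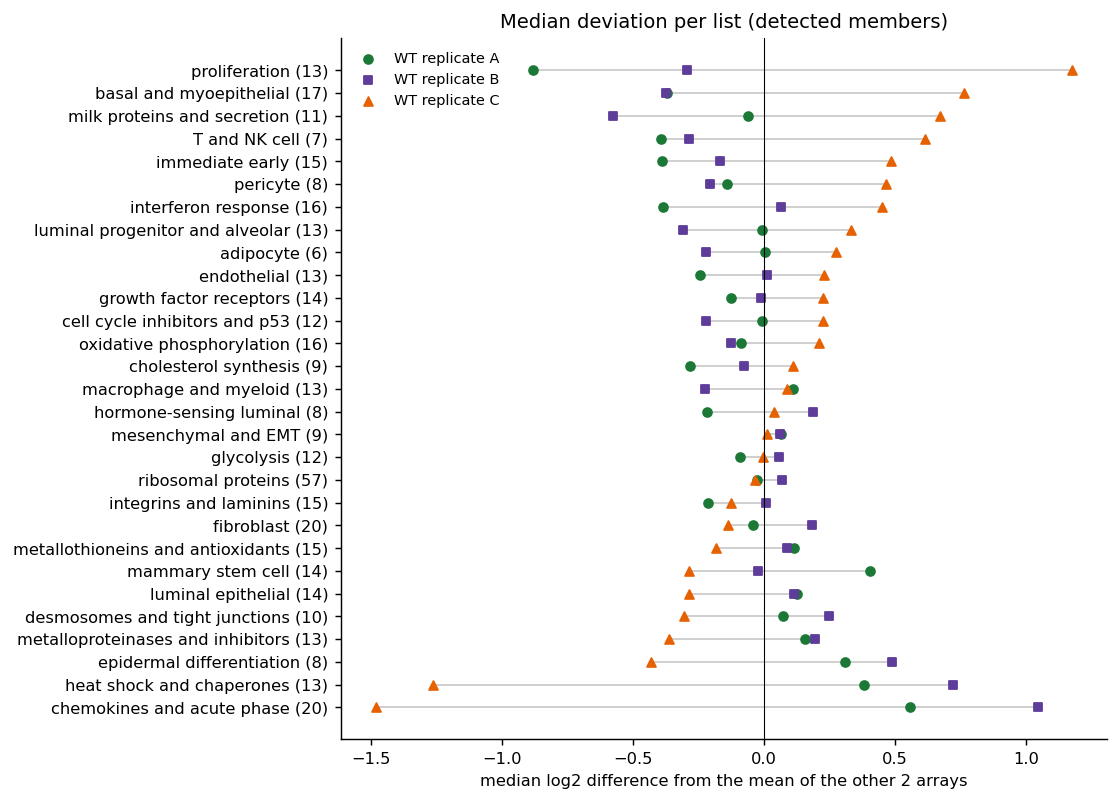
Median log2 difference of each WT array from the mean of the other 2 (horizontal axis) for lists with at least 5 detected members, whose number is in brackets. C ranges from -1.48 for chemokines and acute phase genes to 1.18 for proliferation genes, while for glycolysis and ribosomal protein genes the 3 arrays lie close to 0.

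The steadiest bright genes were Jpt1 (11.67, 11.68 and 11.67), Ubb-ps, the farnesyltransferase subunit gene Fnta (10.56, 10.56 and 10.54), Rps29, Mfge8 and the ubiquitin-conjugating enzyme gene Ube2l3 (10.15, 10.14 and 10.17). Rpl22, Rpl7a, Oat and S100a1 completed the 10 genes of narrowest range among the brightest 10%. Of common reference genes, Gapdh read 10.70, 10.83 and 10.96.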

How the data were processed

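Total RNA of 3 WT cultures was analysed on Illumina mouse bead arrays. The deposited intensity values are raw probe brightness without normalisation, per the file headers, and each has a deposited detection p-value against that array's negative controls. The authors' value table holds log2 values of these arrays, with a median of 6.75 in each WT column and the ranks of the raw values (Spearman correlation 1). Its transform at the low end is unknown here. The submitters' processing notes list GenomeStudio and lumi, with no version or role. Value columns without a sample numbered 0.

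Intensities of the WT arrays alone were corrected and normalised by neqc of limma 3.58.1 in R 4.3.3, with an offset of 16, quantile normalisation and log2. Tables were made in Python 3.11.15. Of 45281 probes, 34885 had 1 gene symbol, 18 had several, which were not named, and 10378 are unnamed here. Of the annotated probes, 99.7% matched the GRCm38.p6 gene table. A gene is represented by its brightest probe and is detected where 1 probe has p under 0.05 on every array. Deviation is an array minus the mean of the other 2. Summed signals add the unlogged values of detected members. Promoters came from RefSeq for GRCm38.p6, and for genes with several, any match counted. The calculation of range and deviation was tested on simulated data.

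The 20 cell type lists and 16 programme lists, 539 listed genes besides ribosomal proteins, were chosen with earlier results of these data known. Of these, 492 have a named probe and the others are not analysed here. Named genes were the markers and 8 regulators, the 30 brightest, up to 5 bright, 2 variable and 4 undetected members of each list, 10 genes per array and direction, and the 10 steadiest of the brightest 10%. Some further genes were named after their values were seen. Alternatives were another detection threshold, omission of each array, no background correction, the authors' table, median scaling, an offset of 50 and the mean of a gene's detected probes.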

Additional observations from a re-analysis of the deposited data

Results flagged for a closer look

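Probes without a gene symbol were left out of the description, and 1889 of them were detected on all 3 WT arrays at a detection p under 0.05, which is 18.2% of the 10378 such probes. Of these, 71 were at least as bright as the 100th brightest named gene. They stand out only as signal above the negative controls in data that no list or ranking covers.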

How the results depend on the processing

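The number of genes detected on all 3 arrays was 9227, and it was 8361 at a detection p under 0.01 and 10120 where detection on 2 arrays was enough. It lay between 9517 and 9547 when an array was left out. Of the 100 brightest genes, 75 to 100 remained among the 100 brightest under every alternative run, with 75 for the mean of a gene's detected probes. The count of genes spanning 2-fold, 1325 in the main setting, was 538 with uncorrected intensities, 488 in the authors' value table, 790 with an offset of 50 and 778 among genes above the median brightness. Without replicate C it was 17, and without A or B it was 953 or 1185. The median SD was 0.25, and it was 0.15 with uncorrected intensities, 0.14 in the authors' value table, 0.094 without replicate C and up to 0.28 without another array. The median deviation of C over the 2 detected erythroid members was -2.60. It became -5.07 at the stricter detection threshold, which leaves Hba-a1 as the only member. Those of the heat shock (-1.41 to -1.19), chemokine (-1.68 to -0.94), proliferation (0.63 to 1.41), basal (0.59 to 0.80) and milk (0.41 to 0.70) lists kept their sign under each alternative run. The chemokine, proliferation and milk medians were smallest in size with uncorrected intensities or in the authors' value table, by over 1.5 times for each. In 3 cases a sign turned: the deviation of A became -0.054 for the stem cell list at the stricter threshold, -0.041 for the neuron list without replicate B (0.0056 without C) and 0.059 for cholesterol synthesis without replicate C (-0.26 without B). The cause was not tested. No paired analysis was possible because only the WT arrays were used and no test was run. Signal over background limits the dimmest genes, whose deviations shrink with any added offset.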
